A study of Mus musculus with 7 samples.

Results

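The metallothionein genes Mt1 and Mt2 and the genes of 4 classes of cytosolic glutathione transferase (mu, alpha, pi and theta) were followed in mouse embryonic stem cells over 6 days of retinoic acid. The group was chosen by measured values of these libraries, since Mt2 and Gstm1 stood among the genes with the steepest courses. The rule then took in Mt1 and every symbol that starts with Gstm, Gsta, Gstp or Gstt, whatever its course. It found 14 genes of 12071 in the table: 2 metallothioneins, 5 mu, 2 alpha, 2 pi and 3 theta genes. The levels of the 14 genes are therefore given as a description, with no test.

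RNA was sequenced from CCE cells, a line of mouse embryonic stem cells kept feeder-free on gelatin in serum medium that also held β-mercaptoethanol. The stem cell medium contained leukemia inhibitory factor (LIF), a cytokine that keeps such cells undifferentiated. The day 0 library came from cells given DMSO, the usual solvent of retinoic acid, and the libraries of days 1 to 6 came from cells given 5 µM retinoic acid for that many days without LIF. Each day had 1 library and no replicate, whether the days came from separate cultures is not stated in the labels, and removal of LIF, retinoic acid and time in culture cannot be told apart.

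Metallothioneins are small, cysteine-rich proteins that bind zinc and copper ions. Their genes are switched on by metals through metal response elements, short promoter motifs bound by the zinc-sensing factor MTF1, and the visceral endoderm around the mouse embryo is known to make them in large amounts. Glutathione transferases join the tripeptide glutathione to reactive, electrophilic compounds, and several of their genes are known targets of the oxidative stress factor NRF2, which acts through antioxidant response elements.

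Mt2 and Mt1 lay side by side, 5520 bp apart on the same strand. Their promoters are shown with that of Gstm1, since these 3 genes had the largest differences between days 0 and 5 among the 5 genes of the group that passed the expression filter explained below. The sequences run 5′ to 3′ on the gene's strand, from 250 bases before to 50 bases after the RefSeq start in build GRCm38.p6. The Mt2 window is chr8:94172368-94172667 (+), the Mt1 window is chr8:94178839-94179138 (+), and the Gstm1 window, 1 of 2 for that gene, is chr3:108017769-108018068 (−). Capitals mark matches, on either strand, to the core of the metal response element, searched as TGCACNC or TGCGCNC.
Mt2: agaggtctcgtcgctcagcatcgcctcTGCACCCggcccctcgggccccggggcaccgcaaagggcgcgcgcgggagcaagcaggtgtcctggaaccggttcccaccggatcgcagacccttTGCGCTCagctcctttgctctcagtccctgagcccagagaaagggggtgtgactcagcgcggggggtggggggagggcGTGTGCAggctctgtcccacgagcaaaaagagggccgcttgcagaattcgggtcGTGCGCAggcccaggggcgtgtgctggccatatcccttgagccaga
Mt1: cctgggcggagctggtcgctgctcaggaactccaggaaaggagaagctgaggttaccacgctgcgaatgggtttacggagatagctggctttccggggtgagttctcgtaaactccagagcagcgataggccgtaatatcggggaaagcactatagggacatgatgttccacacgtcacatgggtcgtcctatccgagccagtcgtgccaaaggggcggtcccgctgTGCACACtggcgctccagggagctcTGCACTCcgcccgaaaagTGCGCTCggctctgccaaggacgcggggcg
Gstm1: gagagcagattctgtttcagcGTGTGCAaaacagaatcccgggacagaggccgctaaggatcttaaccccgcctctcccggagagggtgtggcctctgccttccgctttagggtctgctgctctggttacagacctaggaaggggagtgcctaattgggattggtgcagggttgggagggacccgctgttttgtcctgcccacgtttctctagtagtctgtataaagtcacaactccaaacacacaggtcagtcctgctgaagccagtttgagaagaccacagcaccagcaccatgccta

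The Mt2 window held 4 of these matches, with their leftmost bases at −223, −128, −50 and 5 relative to the start, counted as base 1. The Mt1 window held 3, at −23, 3 and 21, and the Gstm1 window held 1, at −229. Of all 32851 promoter windows of the same length, 25.7% held at least 1 match, 1.97% at least 3 and 0.517% at least 4. Windows were available for 12 of the 14 genes, 16 windows in all, and among the others Gstm4, Gstm5, Gsta1, Gstt1 and Gstp2 had at least 1 match. The 2 matches of Gsta1 overlapped each other on opposite strands. The core of the antioxidant response element, searched as TGACNNNGC on both strands, was found in 12.4% of all windows, and in the group in those of Mt2, Gstm5 and Gstm7. The TATA box letters TATAAA, also searched on both strands, were found in 13.6% of all windows. They stood at −30 in the Gstm1 window printed and were absent from its other window. In the rest of the group they stood at 41 for Gstm5 and at −231 in 1 window of Gstm7. A match is a run of letters and was not tested as a binding site.

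The libraries held between 7194325 and 17923852 reads over the listed transcripts, and these set the counting error of each value. Levels are the deposited log2 values, whole reads per transcript scaled so that the libraries have nearly the same total, and they are not divided by transcript length. Differences between days carry a 95% exact binomial (Clopper-Pearson) interval, which covers counting error only. The day 6 library stood apart: over 7242 genes the root mean square step was 2.31 from day 5 to day 6, against 0.23 to 0.70 for the earlier daily steps. Its values moved with transcript length, by a median of 2.22 for the shortest of 10 length classes and −3.42 for the longest. For this reason day 5 is the last day compared below unless day 6 is named. The expression filter, the choice of transcript per symbol and the quantile normalization of the 14 genes did use all 7 libraries, day 6 included. Day 5 also differed from day 0 with length, by a median of −0.45 for the shortest class and 0.45 for the longest. All 8 embryonic stem cell markers were listed and 7 were at least 4-fold lower on day 5 than on day 0. Of 14 extraembryonic endoderm markers 13 were listed and 12 were at least 4-fold higher.

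On day 1 none of the 14 genes was 4-fold from its day 0 level, where 2.22% of all 12071 symbols stood 4-fold or more above day 0 and 1.11% as far below it. On day 5, 4 of the 14 were at least 4-fold higher than on day 0 (Gstm1, Gsta1, Gstm5 and Gstm2), against 12.7% of all symbols. Another 2 of the 14 were at least 4-fold lower on day 5 (Mt2 and Mt1), against 4.66% of all symbols. With quantile normalization over the genes kept and the group, 1 was higher and 4 were lower. Quantile normalization over all symbols, added after the data were seen, gave 3 higher and 4 lower. Among the 5 genes that passed the expression filter 1 was higher. In the deposited scaling the median difference between day 5 and day 0 was 1.05 over the 14 genes and 0.13 over all symbols. This median depends on the scaling. Gstm4, Gstm7, Gstt1 and Gstt3 were above day 0 there but below it with quantile normalization over the genes kept and the group. These counts are description, since the group was picked with such differences in view, and 9 of the 14 genes did not pass the expression filter, a mean log2 level above 8.40, which is the 40th percentile of all symbols.

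**Figure D1:**
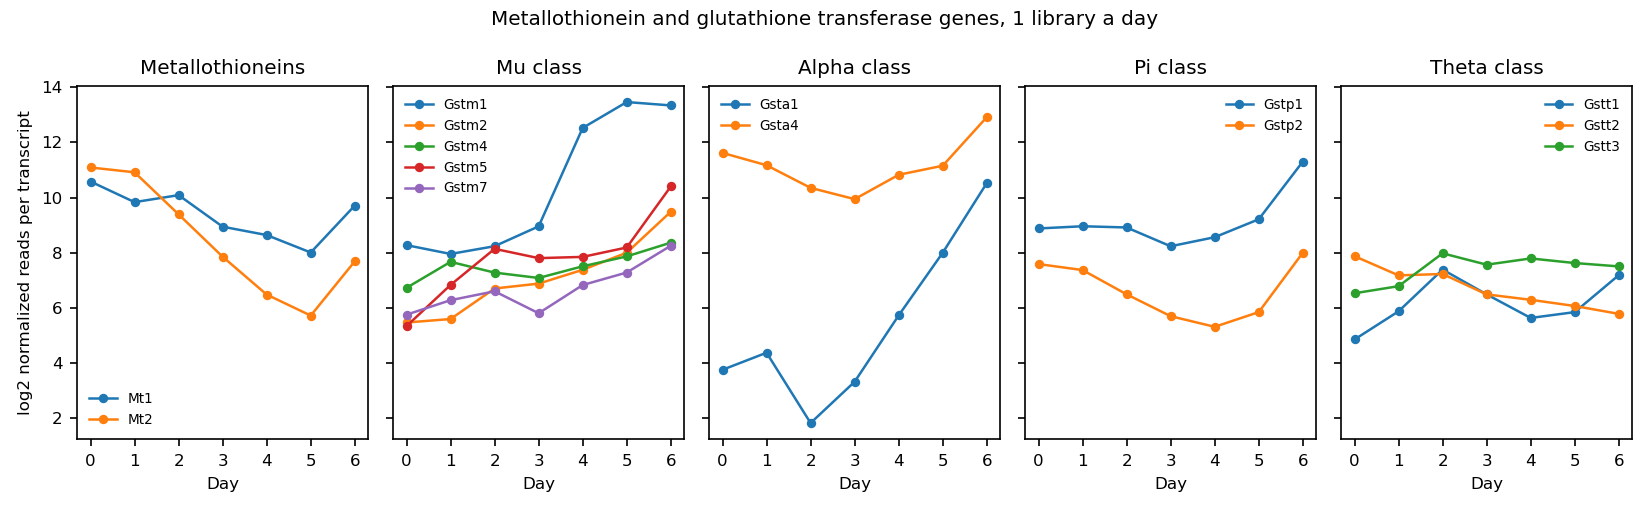
The log2 normalized reads per transcript (vertical axis) of each of the 14 genes are plotted by day (horizontal axis), with 1 library a day and a panel per class. Mt2 falls below Mt1 after day 1 and reaches 5.72 on day 5, while Gstm1 stays between 7.95 and 8.95 until day 3 and stands at 13.47 on day 5.

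Mt2 (NM_008630, mm9 chromosome 8, 96696517 to 96697467) was the gene of the group with the highest level per length on day 0 and one of the lowest on day 5. Its log2 level was 11.09, 10.92, 9.39, 7.85, 6.48, 5.72 and 7.69, in order, from day 0 to day 6. The level dropped on each day up to day 5, and the largest daily steps were those of −1.54 between days 3 and 2 and −1.53 between days 2 and 1. The reads behind the ends were 44 on day 5, against 1136 on day 0. The difference between day 5 and day 0 was −5.37 (95% interval −5.84 to −4.94), which is 41.5-fold lower on day 5. Its size under the other scalings tried lay between −7.52 with quantile normalization and −4.90 with a length correction. Fitted as a straight line over days 0 to 5, Mt2 had a slope of −1.19 ± 0.085 log2 units per day (SE, n = 6 libraries).

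Mt1 (NM_013602, mm9 chromosome 8, 96702988 to 96704225), which encodes the other widely expressed metallothionein, followed a shallower course. Its log2 level was 10.58, 9.83, 10.09, 8.94, 8.64, 8.01 and 9.71, in order, from day 0 to day 6. It was thus lower on day 1 than on day 0, by 0.75, where Mt2 was lower by only 0.17, and day 2 stood above day 1. On day 5 Mt1 differed from day 0 by −2.58 (95% interval −2.80 to −2.36), or 5.97-fold lower, with 215 reads on day 5 and 798 on day 0. The neighbouring genes therefore changed places. Per kb of transcript, the log2 ratio of Mt2 to Mt1 was 0.47, 1.04, −0.74, −1.13, −2.20, −2.33 and −2.07, in order, from day 0 to day 6. None of the 7 intervals of this ratio crossed 0, and Mt2 made up 16.6% of the metallothionein reads per kb on day 5, against 58.0% on day 0.

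The other genes beside the metallothioneins did not share this size of difference. The next listed genes before the pair on chromosome 8, Bbs2 and Ogfod1, differed by −0.74 and −0.70 between day 5 and day 0. After the pair, Nup93, which encodes a nuclear pore protein, differed by −1.11, and Herpud1, an endoplasmic reticulum stress gene, was higher on day 5 by 1.85.

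**Figure D2:**
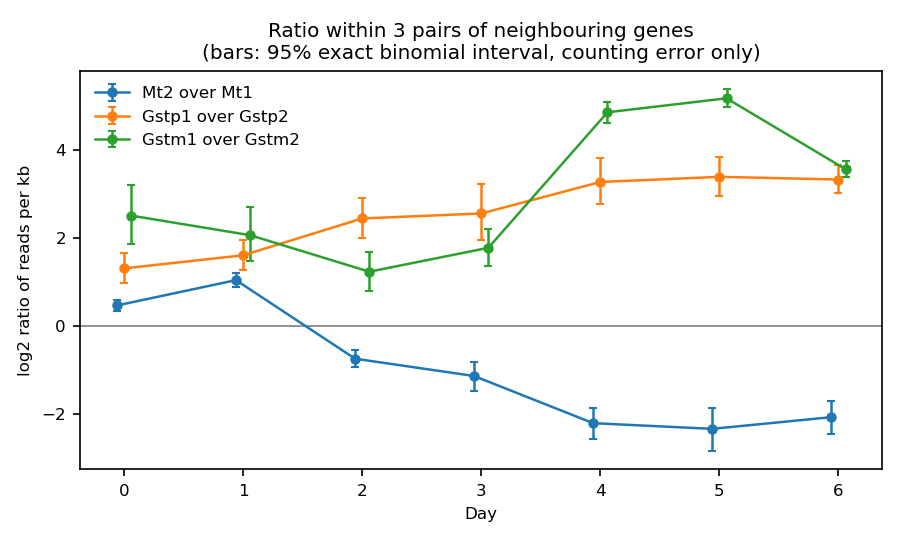
The log2 ratio of reads per kb of transcript (vertical axis) within 3 pairs of neighbouring genes is plotted by day (horizontal axis), with bars for the 95% exact binomial interval of counting error. Mt2 over Mt1 lies above 0 on days 0 and 1 and below it from day 2, Gstp1 over Gstp2 climbs to 3.38 on day 5, and Gstm1 over Gstm2 is at 1.23 on day 2 and 5.17 on day 5.

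Among the mu class, Gstm1 (NM_010358, mm9 chromosome 3, 107815168 to 107820891), whose product conjugates epoxides and other electrophiles and is abundant in mouse liver, had a late step. Its log2 level was 8.27, 7.95, 8.23, 8.95, 12.53, 13.47 and 13.34, in order, from day 0 to day 6. The first 4 libraries lay between 7.95 and 8.95, and the last 3 lay over 3 log2 units above all of them. Between day 4 and day 3 the difference was 3.57 (95% interval 3.39 to 3.76), or 11.9-fold, with 5361 reads on day 4 and 249 on day 3. Day 5 stood 0.94 above day 4. The difference between day 5 and day 0 was 5.19 (95% interval 4.97 to 5.43), 36.6-fold higher on day 5, and lay between 5.01 and 5.50 under the other scalings. A straight line over days 0 to 5 gave a slope of 1.15 ± 0.24 log2 units per day (SE, n = 6 libraries), which averages over this step. On day 0 Gstm1 was below the expression filter of 8.40 and passed it by its later days.

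The other mu genes were low and differed less between day 5 and day 0. Gstm5 was at 5.33, 6.83, 8.14, 7.80, 7.85, 8.19 and 10.40, in order, from day 0 to day 6. Most of its difference was thus in place by day 2, before that of Gstm1. Day 5 exceeded day 0 by 2.85 (95% interval 2.21 to 3.57), with 244 reads on day 5 and 21 on day 0. The start of Gstm5 is overlapped by 4933431E20Rik on the opposite strand, which was at 7.15 on day 5 and 3.26 on day 0, and reads of the pair cannot be told apart where the strand setting of the count is not given.

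Gstm2 was at 5.47, 5.59, 6.70, 6.88, 7.38, 8.0 and 9.49 on days 0 to 6 in turn. Its steps between days 1 and 0 (28 and 23 reads) and between days 3 and 2 (59 reads in both) were within counting error, and each of its other daily steps was upward beyond it. The difference between day 5 and day 0 was 2.53 (95% interval 1.91 to 3.22). With quantile normalization over the genes kept and the group, the differences of Gstm5 and Gstm2 were only 0.88 and 0.49. Over all symbols they were 2.15 and 1.85. Gstm4 and Gstm7 were 1.14 and 1.53 higher on day 5 than on day 0, and 0.60 and 0.83 with quantile normalization over all symbols. Over the genes kept and the group it gave −0.36 and −0.70, so their direction is not firm. Gstm4 had a second listed transcript, whose reads ran from 53 to 180 beside 55 to 195 for the one used, and these can be shared reads.

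The lead of Gstm1 over the rest of its class widened with that step. Per kb, Gstm1 stood above Gstm2 by 5.17 log2 units on day 5 and by 2.50 on day 0, and its lead was smallest on day 2, at 1.23. On day 2 Gstm5 was above Gstm1, by a log2 ratio of −0.41 for Gstm1 over Gstm5 (95% interval −0.73 to −0.085). On day 5 that ratio was 4.78, and Gstm1 made up 91.4% of the mu class reads per kb, against 55.6% on day 0. The aligned parts of the Gstm1 and Gstm2 transcripts were 86.1% identical, and 0.887% of the 50-base windows of Gstm1 occurred exactly in Gstm2, so few reads of that length could be shared. No other pair of mu genes shared a 50-base window.

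The 5 mu genes lay within 149004 bp of chromosome 3, and only Gstm5 was on the plus strand. The neighbours listed on either side were also higher on day 5 than on day 0. Csf1, which encodes the macrophage growth factor M-CSF, had a log2 level of 10.04 on day 5 and 2.53 on day 0. Its day 0 value rested on 3 reads. Csf1 was already at 9.65 on day 3, before the step of Gstm1. Ampd2 and Gnai3, on the other side, differed by 1.25 and 0.93.

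Of the alpha class, Gsta4 (NM_010357), which detoxifies hydroxynonenal and other products of lipid peroxidation, was the transferase with the highest level on day 0. Its log2 level was 11.62, 11.17, 10.35, 9.94, 10.83, 11.16 and 12.92, in order, from day 0 to day 6. The course was a dip with its lowest point on day 3 and not a trend. Day 5 was 1.21 above day 3 (95% interval 1.07 to 1.36). Against day 0 it was −0.47 on day 5, and 0.0062 after the length correction, so no direction is given for that pair of days.

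Gsta1 (NM_008181) is a second alpha transferase of broad substrate range. It was at 3.75, 4.37, 1.82, 3.32, 5.72, 8.0 and 10.53, in order, from day 0 to day 6. Its first 4 libraries held 7, 12, 2 and 5 reads, so no order among them can be read. Days 4 and 5 held 48 and 214 reads, and day 5 exceeded day 3 by 4.68 (95% interval 3.44 to 6.32). The difference between day 5 and day 0 was 4.25 (95% interval 3.18 to 5.58). It was 1.66 with quantile normalization over the genes kept and the group and 3.19 with that over all symbols. Like Gstm1, it had its 2 highest levels of days 0 to 5 on days 4 and 5, and Pearson's r between the genes over those days was 0.87 (n = 6 libraries that share their scaling). The next genes listed after the alpha pair were Gm10639, higher on day 5 by 0.90, and Dppa5a, a stem cell marker that was lower by 6.06. Gm10639 was at 8.52 on day 6 and 4.85 on day 0. Transcripts were compared only within the group, so reads that Gsta1 could share with genes outside it were not examined.

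The pi genes Gstp1 (NM_013541) and Gstp2 (NM_181796) lay 2374 bp apart on chromosome 19 and are near-identical copies. Their transcripts were 94.2% identical, 62.3% of the 50-base windows of Gstp1 occurred exactly in Gstp2, and over the 630 coding bases they had 12 mismatches. The first 60 coding bases, from the GENCODE transcripts of build GRCm38, held 6 of these mismatches and show where reads of the copies can be told apart. Capitals mark the mismatched bases.
Gstp1: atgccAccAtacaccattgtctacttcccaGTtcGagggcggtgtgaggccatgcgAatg
Gstp2: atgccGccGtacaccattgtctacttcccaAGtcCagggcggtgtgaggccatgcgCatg

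The levels of both pi genes are uncertain for this reason, because the sources used here do not say how reads that fit both copies were treated. Gstp1, the main pi transferase, was at 8.88, 8.96, 8.92, 8.23, 8.56, 9.21 and 11.30, in order, from day 0 to day 6. Over days 0 to 5 its range was 0.98, the narrowest of the 14 genes. Gstp2 was at 7.59, 7.37, 6.49, 5.70, 5.31, 5.84 and 8.0, in order, from day 0 to day 6. On day 5 it was −1.74 from day 0 (95% interval −2.27 to −1.23), with 48 reads on day 5 and 100 on day 0. The log2 ratio of Gstp1 to Gstp2 per kb was 3.38 on day 5 (95% interval 2.96 to 3.84), against 1.31 on day 0 (0.97 to 1.66).

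The 3 theta genes stayed low, from 15 to 201 reads in any library, and went different ways. Gstt2 was lower on day 5 than on day 0 by 1.81, with 56 reads on day 5 and 122 on day 0, and on day 6, with 20 reads, its difference from day 0 was −2.09. That day 6 difference was −1.23 with median-centring, −1.10 with quantile normalization over all symbols and −0.36 with quantile normalization over the genes kept and the group. Gstt1, which conjugates small halogenated compounds, had its highest level of days 0 to 5 on day 2, at 7.39. Gstt3 was at 7.98 on day 2, with 143 reads, and at 7.79 on day 4, with 201. Those 2 days of Gstt3 cannot be put in order within counting error. On day 5 Gstt1 and Gstt3 were above day 0, by 0.99 and 1.10. With quantile normalization over the genes kept and the group they stood at −1.64 and −0.64. Quantile normalization over all symbols gave 0.12 and 0.52.

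Per length, the metallothioneins had the larger sum on day 0 and the transferases on day 5. Levels summed as normalized reads per kb of transcript gave 13254 for the 12 transferases and 568 for the 2 metallothioneins on day 5, a ratio of 23.4. On day 0 they gave 4837 for the transferases and 6729 for the metallothioneins, a ratio of 0.719. The metallothionein sum was lower on each day up to day 5, whereas the transferase sum first dropped to 2612 on day 3. The higher transferase sum on day 5 was that of Gstm1: without it, an alternative added after the data were seen, the other 11 transferases summed to 4551 on day 5 and 4599 on day 0. Their ratio to the metallothioneins was then 8.02 on day 5 and 0.683 on day 0. The mu class made up 68.9% of the sum over the 14 genes on day 5, against 3.70% on day 0, and the metallothioneins made up 4.11% on day 5, against 58.2% on day 0.

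**Figure D3:**
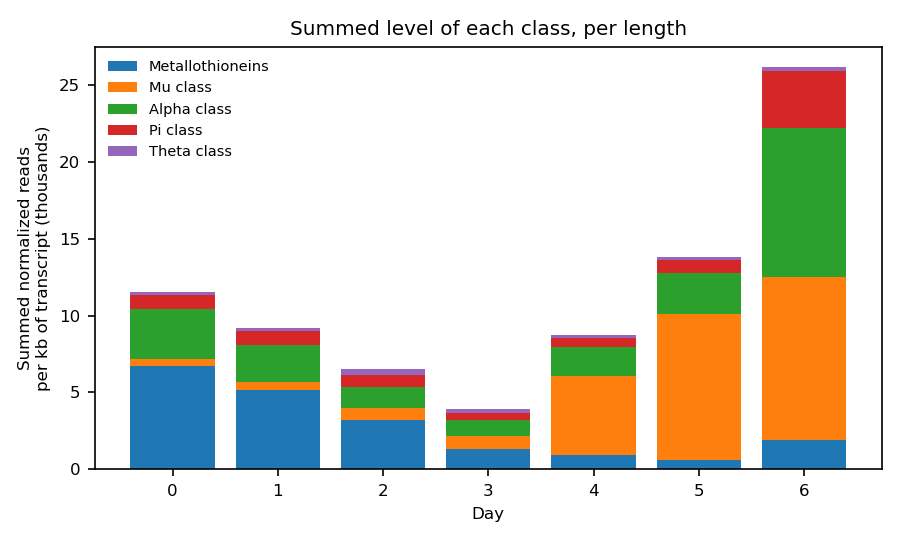
Bars give the normalized reads per kb of transcript (vertical axis, scaled by 1000), summed over the genes of each class by day (horizontal axis), 1 library a day, with no error bar. Metallothioneins make up most of the bar on days 0 and 1 and the mu class most of it on days 4 and 5, and the bar of day 3 is the lowest.

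In order of level per kb, day 5 ran from Gstm1 at 8703, Gsta4 at 2364, Gstp1 at 790 and Mt1 at 473 to Gstt2 at 48.7 normalized reads per kb, and each of the first 4 was apart from the next by more than counting error. Mt2 was 11th, at 94.1, and could not be told from Gstt3 above it or Gstp2 below it. On day 0 the order began with Mt2 at 3905, Gsta4 at 3266, Mt1 at 2824 and Gstp1 at 627, each apart from the next. Gstm1 was 6th on day 0, at 238, and could not be told from Gstp2 above it. From Gstm4 down to Gsta1, the lowest at 15.5, no neighbours in the day 0 order were apart.

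On day 6, 7 of the 14 genes stood 4-fold or more above day 0 and 2 as far below it, where 9.54% of all symbols were higher and 27.1% lower. The median difference was 1.99 over the 14 genes and −0.71 over all symbols. The genes of the group are short, at 543 to 1878 nt against a median of 2940 nt over all symbols, and short transcripts stood high in that library. Against day 5, Mt2 was 1.97 higher on day 6 and Mt1 was 1.70 higher, while genes of the same length class had a median of 2.22. Gstm1 was −0.12 from day 5, where its length class had a median of 1.05. After the length correction 4 of the 14 genes were at least 4-fold higher on day 6 than on day 0. The part of length in the day 6 values of single genes was not tested.

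**Figure D4:**
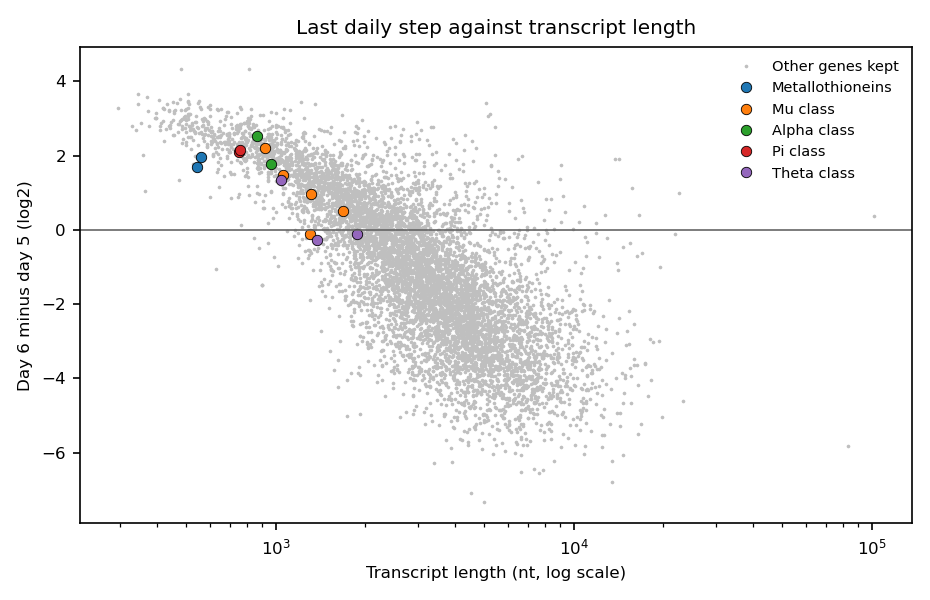
The day 6 minus day 5 difference in log2 units (vertical axis) is plotted against transcript length in nt on a log scale (horizontal axis) for the genes kept, in grey, and the 14 genes, in colour by class. Differences fall with length, and the 14 genes lie at the short end, with Mt1 and Mt2 (1.70 and 1.97) below the median of their length and Gstm1 at −0.12.

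Genes whose course was most like that of Mt2 were sought among the other 7237 genes kept, by Pearson's r of the log2 values over days 0 to 5 (n = 6 libraries, a description across shared libraries). The 5 most alike were Mcm2, a subunit of the replicative helicase (r = 0.999), Nfyc, 2610507B11Rik, Hsp90ab1 and Sart1. Their differences were far smaller, with Mcm2 at 11.91 on day 5 and 14.12 on day 0 and Nfyc at 10.18 on day 5 and 10.93 on day 0. In all, 806 genes, or 11.1%, had an r of at least 0.95 with Mt2, so a course of this form was common. For Gstm1 the 5 most alike were Gtl3 (r = 0.991), Dpm1, Esd, Fam54b and Sulf1, and 45 genes, or 0.622%, reached 0.95. Sulf1, an extracellular sulfatase, was the one of these 5 with the largest difference, at 12.55 on day 5 and 9.54 on day 0.

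Genes that act with the group were taken from 5 lists and their slopes over days 0 to 5 were tested with limma over all 7242 genes kept. The lists were drawn up with earlier results of these data known. Over all genes kept, 25.7% were called rising and 26.8% falling at an adjusted p under 0.05, with a median slope of −0.0012. Of 116 listed genes, 95 were in the table and 67 were kept, of which 22 rose and 16 fell, with a median slope of −0.0049. With the day 6 library added, 2 of the 67 rose and 2 fell, where 1.6% of all genes kept rose and 3.78% fell. The 4 were Clic1 and Mgst3 upward and Txnip and Abcc4 downward, and the slopes of Atp7a, Bach1, Clic4, Fth1, Gclc, Prdx1 and Slc39a6 changed sign. Without the day 0 library 10 rose and 13 fell. Of the 31 called genes named below, 12 lost the call without day 0, 6 without day 1, 1 without day 2, 2 without day 3, 8 without day 4 and 5 without day 5. These were Atp7a, Bach1, Clic4, Cth, Fth1, G6pdx, Gclc, Gstz1, Mgst3, Prdx4, Slc11a2, Slc39a14 and Slc7a11, some of them more than once. The counts are near those of all genes, and nothing particular to the lists is read from them.

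Other transferases and their relatives were the list with rises only. Of 7 kept, 5 rose and none fell, with a median slope of 0.20. Clic1, an intracellular chloride channel protein of the transferase fold, rose by 0.58 ± 0.095 per day (SE, limma adjusted p = 0.00459) and stood at 11.42 on day 5, against 8.86 on day 0. Mgst3, a microsomal transferase, rose by 0.35 per day (adjusted p = 0.0143), Gstz1, the zeta transferase of tyrosine breakdown, by 0.21 (adjusted p = 0.0235) and Clic4 by 0.20 (adjusted p = 0.0309). Mgst3 and Gstz1 lost the call with quantile normalization. Mgst3 and a further rising gene of this list passed the expression filter only through their day 6 levels, 10.35 and 10.19. Their means over days 0 to 5, the days of the fit, were below the filter. The count of 5 rising genes thus depends in part on the day 6 library, in which short transcripts stood high. Mgst1, a microsomal transferase below the expression filter and so not tested, was at 8.54 on day 5 and 2.53 on day 0, where it rested on 3 reads.

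Glutathione synthesis and recycling went both ways, with 2 genes rising and 3 falling of 10 kept and a median slope of −0.045. Gclc, the catalytic subunit of the rate-limiting enzyme of glutathione synthesis, rose by 0.14 per day (limma adjusted p = 0.0328). Slc7a11, the cystine importer, rose by 0.17 (adjusted p = 0.0427), and its call was lost after median-centring, the length correction or quantile normalization, the last of which ended that of Gclc as well. Slc3a2, the partner chain of that importer, fell by 0.23 per day (adjusted p = 0.00634). Cth, which makes cysteine from cystathionine, fell by 0.64 (adjusted p = 0.0196) and was at 7.72 on day 5 and 10.99 on day 0. G6pdx, which feeds NADPH to glutathione recycling, fell by 0.18 (adjusted p = 0.0218). Gclm, Gss and Gsr, the modifier subunit, the synthetase and the reductase, were not called, with slopes of −0.020, −0.077 and −0.025.

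Among peroxidases, peroxiredoxins and the thioredoxin system, 4 of 20 genes kept rose and 5 fell, with a median slope of −0.046. Gpx3, the secreted glutathione peroxidase, had the steepest slope of the 5 lists, 1.24 ± 0.17 per day (SE, limma adjusted p = 0.00316). Its level was 7.84, 9.14, 11.95, 12.81, 13.70 and 13.64, in order, from day 0 to day 5, so that most of its rise came before the step of Gstm1. Cat, the catalase gene, rose by 0.51 per day (adjusted p = 0.0027), Prdx4 by 0.35 (adjusted p = 0.01) and Glrx5, a mitochondrial glutaredoxin, by 0.20 (adjusted p = 0.00758). Falling genes included Txnip, a thioredoxin inhibitor (slope −0.48, adjusted p = 0.00397), and the superoxide dismutases Sod2 (−0.41, adjusted p = 0.0103) and Sod1 (−0.27, adjusted p = 0.00331). Prdx1, a cytosolic peroxiredoxin, had a slope of −0.35 (adjusted p = 0.00321). The selenoprotein genes Gpx4 and Txnrd1 were not called, with slopes of −0.058 and 0.040.

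**Figure D5:**
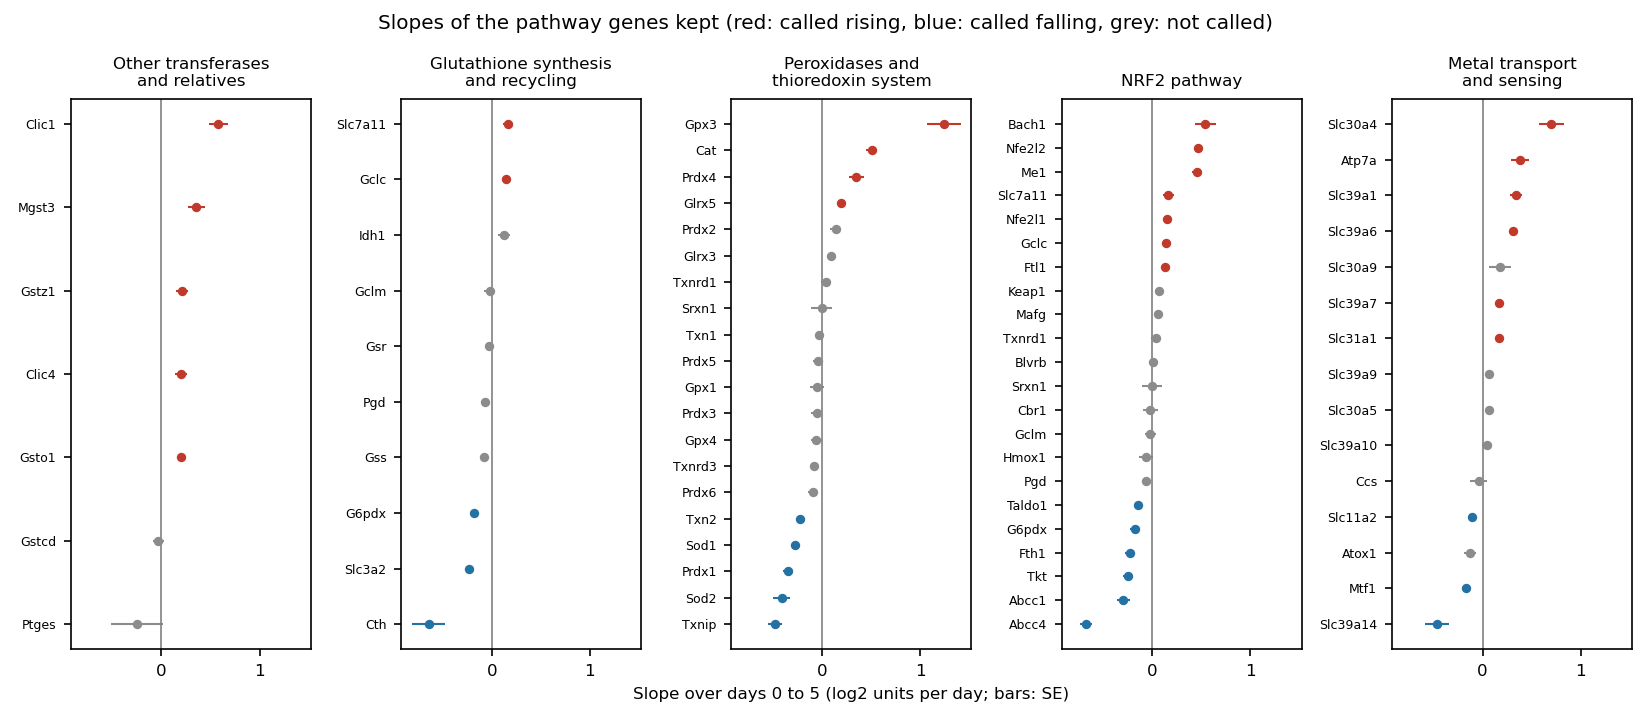
Slopes over days 0 to 5 in log2 units per day (horizontal axis) with bars for the SE are shown for the listed genes kept, a row per gene and a panel per list, in red where called rising, blue where called falling and grey where not called. Gpx3 has the steepest slope, at 1.24, and Abcc4 the most negative, at −0.68.

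In the NRF2 list 7 of 22 genes kept rose and 6 fell, with a median slope of 0.0030. Nfe2l2, which encodes NRF2, rose by 0.47 ± 0.042 per day (SE, limma adjusted p = 0.00192) and stood at 12.00 on day 5, against 9.85 on day 0. Bach1, a repressor that competes with NRF2 for the same elements, rose by 0.54 (adjusted p = 0.00837), and Me1, which makes NADPH, by 0.45 (adjusted p = 0.0022). Abcc4 and Abcc1, pumps that export conjugates, fell by 0.68 (adjusted p = 0.00215) and 0.29 (adjusted p = 0.0135). Tkt and Fth1, the ferritin heavy chain gene, fell by 0.25 (adjusted p = 0.00559) and 0.22 (adjusted p = 0.0133). Of the much-used NRF2 target genes, Hmox1 had a slope of −0.063 and was not called, and Nqo1, below the expression filter and so not tested, was at 8.92 on day 5 and 8.59 on day 0. Keap1, which holds NRF2 in check, had a slope of 0.066 and was not called.

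In the metal list 6 of 15 genes kept rose and 3 fell, with a median slope of 0.067. Mtf1, the factor that activates metallothionein genes, fell by 0.17 ± 0.035 per day (SE, limma adjusted p = 0.00857) and was at 8.42 on day 5 and 9.30 on day 0. Slc30a1, a zinc exporter and another known target of MTF1, was at 7.99 on day 5 and 9.39 on day 0. It was below the expression filter and so not tested, because of a day 6 level of 3.04 that rested on 3 reads. Its mean over days 0 to 5 was above 8.40. The zinc exporter Slc30a4 rose by 0.70 (adjusted p = 0.00603), the copper pump Atp7a by 0.38 (adjusted p = 0.0137), and the zinc importers Slc39a1 and Slc39a6 by 0.34 (adjusted p = 0.00489) and 0.31 (adjusted p = 0.00317). Slc39a14, an importer of zinc, manganese and iron, fell by 0.46 (adjusted p = 0.0215) and Slc11a2, the iron importer DMT1, by 0.11 (adjusted p = 0.0451). The call of Slc11a2 was lost when the reads of all its transcripts were summed.

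Markers of several cell types moved over the same days as the group. The summed level of the 8 stem cell markers was 11.11 on day 5 and 16.29 on day 0 on the log2 scale, and that of the 13 extraembryonic endoderm markers listed was 17.19 on day 5 and 13.09 on day 0. The endoderm sum, in which Col4a1, Lama1 and Cubn were the largest, was at 18.11 on day 3, when Gstm1 was at 8.95. Single markers of that list differed in timing. Between days 3 and 4, Apoa1 went from 5.80 to 8.86 and Rbp4 from 9.55 to 11.24, while Lama1 went from 16.74 to 16.13. All 8 fibroblast and mesenchyme markers were listed, of which 6 stood 4-fold or more above day 0 on day 5 and 1 as far below it, with a summed level of 15.09 on day 5 and 10.01 on day 0. Of 5 hepatocyte markers none was listed. Of 5 blood and macrophage markers the 2 listed, Cd68 and Csf1r, were not 4-fold from day 0 on day 5. Cd68 was more than 4-fold lower on day 2, at 6.31 against 9.07 on day 0. In bulk RNA, fewer cells of a type and less RNA per cell cannot be told apart, and the part of these cell types in the courses of the 14 genes was not tested.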

How the data were processed

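RNA of 7 libraries, 1 a day, was sequenced after ribosomal RNA depletion with a stranded kit, per the labels' protocols, and BWA 0.7.3 and mm9 are named in the submitters' processing notes. How reads were counted, on which strand, and how libraries were scaled is not stated in the labels. Each deposited value is the log2 of the scaled reads of a RefSeq transcript. Raised from the log, all values up to 1000 reads lay within 0.05 reads of whole multiples of the library's lowest value, taken as 1 read (100% in each library). A whole number added to the reads before scaling cannot be told apart.

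For a symbol with several of the 15296 transcripts, the one with the highest mean was used. A filter on the mean at its 40th percentile, 8.40, left 7242 genes kept. Lines on day were fitted with limma 3.58.1 (R 4.3.3), whose moderated variances followed a trend on the mean (4 residual degrees of freedom, two-sided, Benjamini-Hochberg adjustment over the genes kept), called at an adjusted p under 0.05. The p-values measure only the spread of these 6 libraries around a line. Ratios of reads carry 95% exact intervals. Promoters are RefSeq windows of GRCm38.p6, and transcripts for the copies are from GENCODE, read with Biopython 1.88. Positions of genes are as deposited, in mm9, and were not converted.

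The members and lists were chosen with earlier results of these data known. Named were all 14 genes, the 5 genes most alike in course to Mt2 and to Gstm1, up to 4 called genes per list and direction with the largest slopes, and 14 pathway genes named whatever their result. Neighbouring and marker genes were named by position and list. Alternatives were other scalings, a correction by 10 length classes, 5 added reads, no filter, summed transcripts, a 2-fold threshold, all 7 libraries and each library left out.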

Additional observations from a re-analysis of the deposited data

How the results depend on the processing

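The limits are 1 library a day, low reads for 9 of the 14 genes and a day 6 library that differs with length. Day 5 also differed from day 0 with length, to a smaller degree. The library median of the genes kept, which median-centring takes away, stood 0.19 above day 0 on day 5 and at −0.86 from it on day 6. For members at least 4-fold higher on day 5 (4 as reported), quantile normalization over the genes kept and the members gave 1. Over all symbols it gave 3. A 2-fold threshold gave 7 and only members passing the filter 1. For those lower on day 5 (2 as reported), quantile normalization gave 4, also over all symbols (added after seeing the data), and the 2-fold threshold 4. On day 6, those higher (7 as reported) came to 4 with the length correction and 2 among members passing the filter, and those lower (2 as reported) to 1 with median-centring, with either quantile normalization, with 5 added reads and among members passing the filter. The difference of Gsta4 between day 5 and day 0 was reversed with the length correction (0.0062, and −0.48 for day 6). With quantile normalization over the genes kept and the members, those of Gstm4 (−0.36), Gstm7 (−0.70), Gstt1 (−1.64) and Gstt3 (−0.64) were reversed as well. Each of the latter kept its sign with quantile normalization over all symbols. Rising pathway genes (22 as reported) came to 2 with all 7 libraries and to between 10 (without day 0) and 24 with 1 library left out, and falling ones (16 as reported) to 2 and to between 12 and 15. With all 7 libraries the slopes of Atp7a (−0.19), Bach1 (−0.092), Clic4 (−0.10), Fth1 (0.030), Gclc (−0.19), Prdx1 (0.0070) and Slc39a6 (−0.12) changed sign. Over all genes kept, 1858 rose and 1943 fell, against 1622 and 2348 with median-centring. The cause of these changes was not tested. Of the recomputed differences of the members, 98 stayed within their counting interval, 64 moved beyond it and 6 with an interval clear of 0 changed sign. Among the 64, that of Gstp2 between day 6 and day 0 (0.41, with an interval that holds 0) was −1.37 with the length correction. No paired analysis was possible because each day had 1 library.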
